A study of Homo sapiens with 20 samples.

Results

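The genes described here are 10 receptor tyrosine kinase genes of glioblastoma, EGFR, PDGFRA, PDGFRB, MET, FGFR1, FGFR2, AXL, IGF1R, KIT and NTRK2. Their loops are the listed Hi-C anchor pairs with an anchor within 3 kb of an annotated hg19 transcript start of one of these genes. In all, 530 of the 572000 anchor pairs in the union of the 4 lists were chosen in this way. The human glioblastoma cell lines H4 and 42MGBA carry mutant STAG2. Their gene-edited derivatives, H4 88-1 for the former and 42MGBA 53-1 for the latter, have a wild-type STAG2 genotype, and each stands as 1 edited line in the labels. Each of these 4 cell lines was profiled by Hi-C in 2 replicates, which the authors pooled into 1 list of the 300000 strongest anchor pairs. STAG2 encodes a subunit of cohesin.

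Receptor tyrosine kinases span the plasma membrane, bind a growth factor outside the cell and phosphorylate themselves and relay proteins inside it. EGFR and PDGFRA are among the genes most often amplified in glioblastoma, and PDGFRA marks oligodendrocyte progenitors in the normal brain. Cohesin draws chromatin into loops that are held mostly where CTCF is bound, and such loops set which distant elements lie near a gene's start.

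A loop here is a pair of anchors of about 5 kb, and its strength is the deposited signal, a value without a unit made by HiCorr and DeepLoop. The lists went down to 4.14 in H4 and 4.44 in H4 88-1, and 4.49 in 42MGBA against 4.28 in 42MGBA 53-1, so a loop missing from a list had a strength below these values and is not shown to be absent from the cells. With 1 pooled value per line, no difference could be tested against replicates, and no depth or counting error can be given for a single loop. Loops of a gene share anchors and lie beside one another, so they are not replicates, and the ranges below are ranges over loops.

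All 10 genes had listed loops in at least 1 line, and PDGFRA, PDGFRB, MET, FGFR1, FGFR2 and IGF1R had them in all 4 lines. Of 20136 protein-coding genes, 10019 (49.8%) had a listed loop in at least 1 line and 4549 (22.6%) in all 4. The chosen loops numbered 203 in H4 and 299 in H4 88-1, and 358 in 42MGBA against 239 in 42MGBA 53-1. They were thus most numerous in 42MGBA and fewest in H4. The first rank of 42MGBA rests on PDGFRA, which had 150 of the 358 loops there. It had 44 in H4, 58 in H4 88-1 and 49 in 42MGBA 53-1. Counting only anchors that overlap a start site gave 134, 180, 251 and 149 in the same order of lines, and only the outermost 5′ start of each gene gave 120, 144, 230 and 127.

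**Figure D1:**
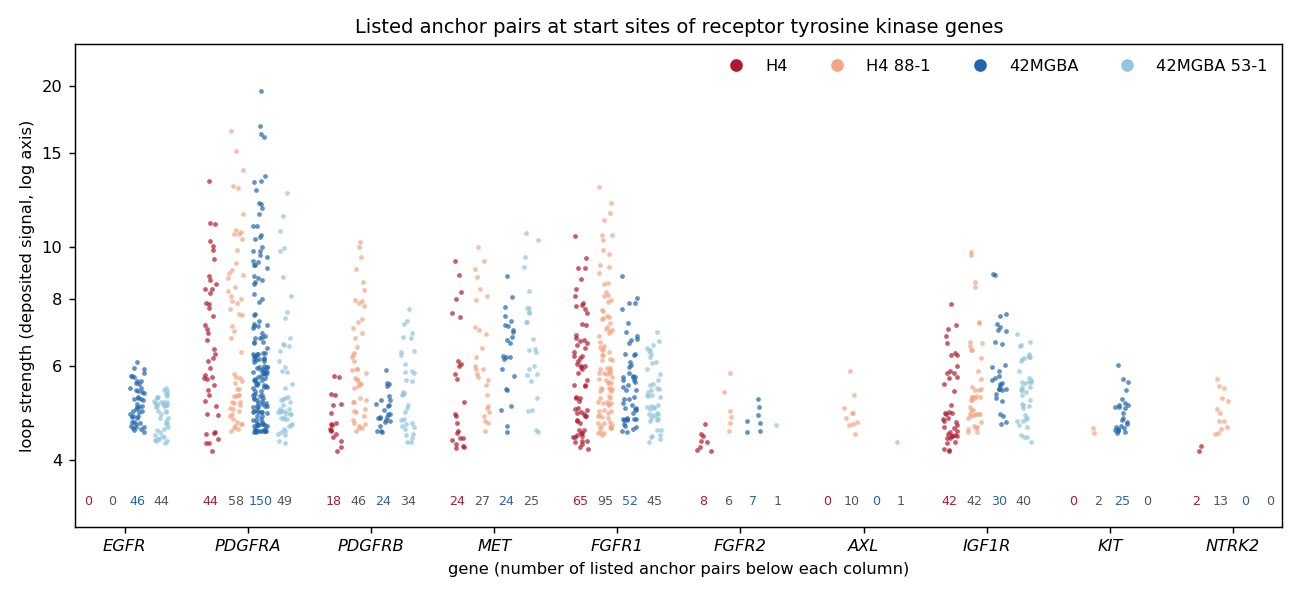
Strength of every listed anchor pair (vertical log axis, deposited signal) at the start sites of each gene, with a column of points per cell line and the number of listed pairs printed below it. PDGFRA reached 19.6 in 42MGBA, and EGFR had no listed pair in H4 or H4 88-1.

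The anchors were searched for the letters AGGGGGCGC on both strands, the core of the motif that CTCF binds. These 9 letters were found in 2491 of 128561 listed anchors (1.94%), in 4 of the 60 start-site anchors of the 10 genes (6.67%) and in 4 of their 209 partner anchors (1.91%). An anchor of NTRK2 is counted in both roles. A match is a description of the sequence and not a bound site. The matches that lie outside exons are printed below with 30 bases of hg19 on each side, on the strand that carries the motif and with the motif in capitals, because they sit in anchors of loops described in the following paragraphs. The first is in the start-site anchor with the most loops of PDGFRA. The others are in a corner of the loop around EGFR, in the anchor upstream of IGF1R, in the anchor downstream of KIT and in an intragenic start-site anchor of NTRK2.
PDGFRA chr4:55094371-55094439, minus strand: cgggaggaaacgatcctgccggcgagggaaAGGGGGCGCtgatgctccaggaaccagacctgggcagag
EGFR chr7:55322674-55322742, minus strand: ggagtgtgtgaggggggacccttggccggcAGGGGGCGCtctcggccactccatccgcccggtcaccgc
IGF1R chr15:99062460-99062528, plus strand: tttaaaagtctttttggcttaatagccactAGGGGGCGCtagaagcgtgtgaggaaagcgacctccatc
KIT chr4:55833274-55833342, plus strand: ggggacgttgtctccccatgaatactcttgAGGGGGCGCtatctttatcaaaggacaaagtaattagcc
NTRK2 chr9:87569141-87569209, minus strand: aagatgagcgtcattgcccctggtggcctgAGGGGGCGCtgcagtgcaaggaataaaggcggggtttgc

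The promoters of EGFR and MET are shown because the loops of both genes start in part from an anchor that holds this sequence, at EGFR in the lines of a single system and at MET in all 4 lines. Each is the 250 bases of hg19 before the start of the canonical transcript, on the plus strand, with the GC box GGGCGG or its complement in capitals.
EGFR chr7:55086460-55086709: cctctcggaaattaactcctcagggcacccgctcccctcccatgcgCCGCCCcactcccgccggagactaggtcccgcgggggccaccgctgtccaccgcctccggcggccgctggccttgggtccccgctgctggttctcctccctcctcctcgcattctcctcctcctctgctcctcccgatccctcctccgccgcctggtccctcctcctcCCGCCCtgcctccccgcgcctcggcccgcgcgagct
MET chr7:116312000-116312249: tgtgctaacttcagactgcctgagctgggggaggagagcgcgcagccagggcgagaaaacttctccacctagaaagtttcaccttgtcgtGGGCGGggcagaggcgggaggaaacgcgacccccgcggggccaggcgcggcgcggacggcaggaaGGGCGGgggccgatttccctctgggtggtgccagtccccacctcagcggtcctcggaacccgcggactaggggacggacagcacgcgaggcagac

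Both promoters hold the GC box at 2 places, and 59.1% of 19856 promoters of the same length hold at least 1. Neither holds TATAAA, which was found in 9.25% of the promoters, or CCAAT, which was found in 34.3%, on either strand. The share of G and C was 73.6% at EGFR and 68.4% at MET, beside a median of 63.2% over all promoters.

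To ask which loops of these genes differed after STAG2 correction, the 100000 strongest loops of both lines of a pair were merged, corrected strengths were regressed on mutant strengths with no intercept, and loops were called gained or lost when their residuals, as z-scores, passed the two-sided 0.05 cutoff of a normal distribution. With 1 value per line this cutoff ranks loops and tests nothing against replicates. Where both z-scores of a loop are given, that of the H4 pair comes first. A loop missing from a list was given that list's lowest strength, so its fold difference is a lower bound. In the H4 pair, 119 merged loops lay at start sites of 5 of the genes, PDGFRA, PDGFRB, MET, FGFR1 and IGF1R. Of these, 8 (6.72%) were gained, 7 at PDGFRB and 1 at PDGFRA, where 1.94% of all 129476 merged loops were gained. None of the 119 loops was lost, beside 2.17% of all merged loops. The median log2 ratio of H4 88-1 to H4 strength was 0.35 over the 119 loops and 0.074 over all merged loops, and it was positive in 107 of the 119 (89.9%) and in 58.1% of all.

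In the 42MGBA pair, 119 merged loops again lay at start sites of the same 5 genes. All 21 lost loops (17.6%) were at PDGFRA, where 2.45% of all 131211 merged loops were lost. A single loop (0.840%), at MET, was gained, beside 1.61% of all. The median log2 ratio of 42MGBA 53-1 to 42MGBA strength was −0.39 over the 119 loops and −0.11 over all merged loops, and it was positive in 31 of the 119 (26.1%) and in 38.7% of all. These pooled values depend on PDGFRA, which had 60 of the 119 loops, none of them positive. The ratio was positive in 13 of 13 loops at PDGFRB, 13 of 17 at MET, 4 of 17 at FGFR1 and 1 of 12 at IGF1R. Loops at EGFR, FGFR2, AXL, KIT and NTRK2 were listed, but none reached the merged set of either pair. The lists themselves differ in scale: over the pairs listed in all 4 lines, the log2 ratio of the median strengths was 0.11 between the H4 lines and −0.13 between the 42MGBA lines, and the changes below are to be read beside these shifts.

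**Figure D2:**
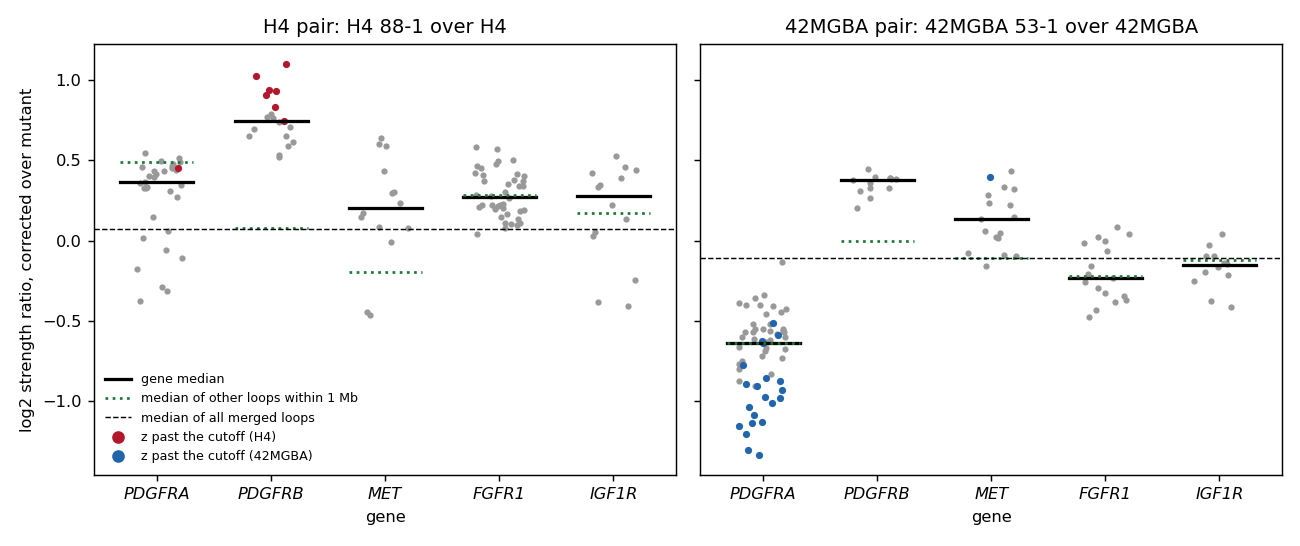
Log2 ratio of strength, corrected over mutant line (vertical axis), of each merged loop at the start sites of 5 genes, in the H4 pair and the 42MGBA pair, with coloured points for gained or lost loops. The solid bar is the gene's median, the dotted bar the median of other merged loops within 1 Mb and the dashed line the median of all merged loops, and all 60 PDGFRA loops lie below 0 in the 42MGBA pair.

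PDGFRA (chr4:55095447-55164412, plus strand), the receptor for platelet-derived growth factors of the A, B and C types, had 156 listed loops, the most of the 10 genes. They numbered 44 in H4 and 58 in H4 88-1, and 150 in 42MGBA against 49 in 42MGBA 53-1. The count was thus about alike in 3 of the lines and higher in 42MGBA. All ran upstream, over 4.77 to 1211 kb between anchor midpoints, and 134 of the 156 started from an anchor within 3 kb of the canonical start. The anchor that holds the first sequence printed above, chr4:55090708-55095703, had 74 of them.

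The strongest loop of a gene is here the one with the largest mean strength over the 4 lists, which need not be the highest in each line. That of PDGFRA joined this anchor with chr4:54771499-54776467, 319 kb upstream, where no coding gene starts. This loop measured 13.3 in H4 and 16.5 in H4 88-1, and 19.6 in 42MGBA against 12.6 in 42MGBA 53-1. It was therefore 1.24-fold higher in the corrected line of the H4 pair, with a z-score of 1.58, and 0.643-fold in the 42MGBA pair, with a z-score of −3.25. The loop with the largest z-score joined the same anchor with chr4:54795569-54800449, 295 kb upstream. It had strengths of 7.88 in H4 and 10.7 in H4 88-1, and 12.8 in 42MGBA against 5.07 in 42MGBA 53-1, with z-scores of 1.43 and −4.17. On both loops 42MGBA was the highest line and its corrected derivative the lowest.

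Over the 32 merged PDGFRA loops of the H4 pair the log2 ratio ran from −0.38 to 0.55 with a median of 0.36, and 26 were positive. Over the 60 merged loops of the 42MGBA pair it ran from −1.34 to −0.13 with a median of −0.64. None of the 60 was positive, 38 were at least 1.5-fold weaker in 42MGBA 53-1, and 18 were missing from the list of 42MGBA 53-1. The share of all merged loops of a pair that pass a 1.5-fold ratio was not computed, so the 38 have no background. Among 2064 genes with at least 10 merged loops in this pair, 90 had a lower median. Loops beside those of the gene had like values, since the median of 308 other merged loops within 1 Mb was also −0.64 in this pair and that of 66 such loops in the H4 pair was 0.49. The medians over chromosome 4 were −0.17 in the 42MGBA pair and 0.041 in the H4 pair. The part of this wider shift in the values of PDGFRA was not tested.

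Along the locus, the median log2 ratio of merged loops in the 42MGBA pair was −0.42 in the bin from −1.5 to −1 Mb of the PDGFRA start, −0.61 from −1 to −0.5 Mb, −0.64 from −0.5 to 0 Mb, −0.75 from 0 to 0.5 Mb, −0.56 from 0.5 to 1 Mb and −0.71 from 1 to 1.5 Mb. Each bin holds all merged loops whose midpoint lies in it, those of PDGFRA included. Only 8 and 9 loops fill the first and last of these bins, and the others hold 22 or more. From −2 to −1.5 Mb it was −0.018, over 14 loops. In the H4 pair the median was 0.17 from −2 to −1.5 Mb, −0.10 from −1.5 to −1 Mb, −0.21 from −1 to −0.5 Mb, 0.54 from −0.5 to 0 Mb, 0.18 from 0 to 0.5 Mb, 0.45 from 0.5 to 1 Mb and −0.48 from 2 to 2.5 Mb. These bins hold 18, 10, 18, 65, 25, 16 and 4 loops, and 16 of the 65 were gained while no other bin had a call. The bin before the PDGFRA start thus had its 16 gained loops between the H4 lines and 39 lost loops of 159 between the 42MGBA lines. Lost loops of the 42MGBA pair also lay in other bins. They were 14 of 202 from −1 to −0.5 Mb and 6 of 40 from 0 to 0.5 Mb. Farther downstream they were 5 of 22 from 0.5 to 1 Mb and 1 of 9 from 1 to 1.5 Mb. None was lost from −2 to −1 Mb.

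The partner regions of PDGFRA differed between lines. The main region, chr4:54712588-54829617, overlaps no protein-coding gene and had 26 loops in H4 and 44 in H4 88-1, and 60 in 42MGBA against 31 in 42MGBA 53-1. Its merged loops had a median log2 ratio of 0.43 in the H4 pair, over 24 loops, and −0.63 in the 42MGBA pair, over 31 loops of which 13 were lost. A region within SCFD2, chr4:54044091-54077767, lay 1018 to 1051 kb upstream. The highest strength there was 10.1 in H4 and 9.34 in H4 88-1, and 10.6 in 42MGBA against 4.92 in 42MGBA 53-1, with 15, 12, 13 and 2 listed loops. These very long loops were therefore near the lowest listed strength in 42MGBA 53-1 and well above it in the other lines, and 4 of the 8 merged in the 42MGBA pair were lost.

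Some other partner regions were listed in 42MGBA alone or mostly in the lines of the 42MGBA system. A region at LNX1, which encodes a ubiquitin ligase, spans chr4:54341175-54385106 and had 18 loops in 42MGBA, of up to 6.79, and none in the other lists. A nearer LNX1 region, chr4:54509533-54606476, had 38 loops of up to 11.5 in 42MGBA and 15 of up to 6.58 in 42MGBA 53-1, beside 1 in H4 and 2 in H4 88-1. The region at the start of CHIC2, chr4:54921606-54941008, had 7 loops of up to 6.34 in 42MGBA and none elsewhere.

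**Figure D3:**
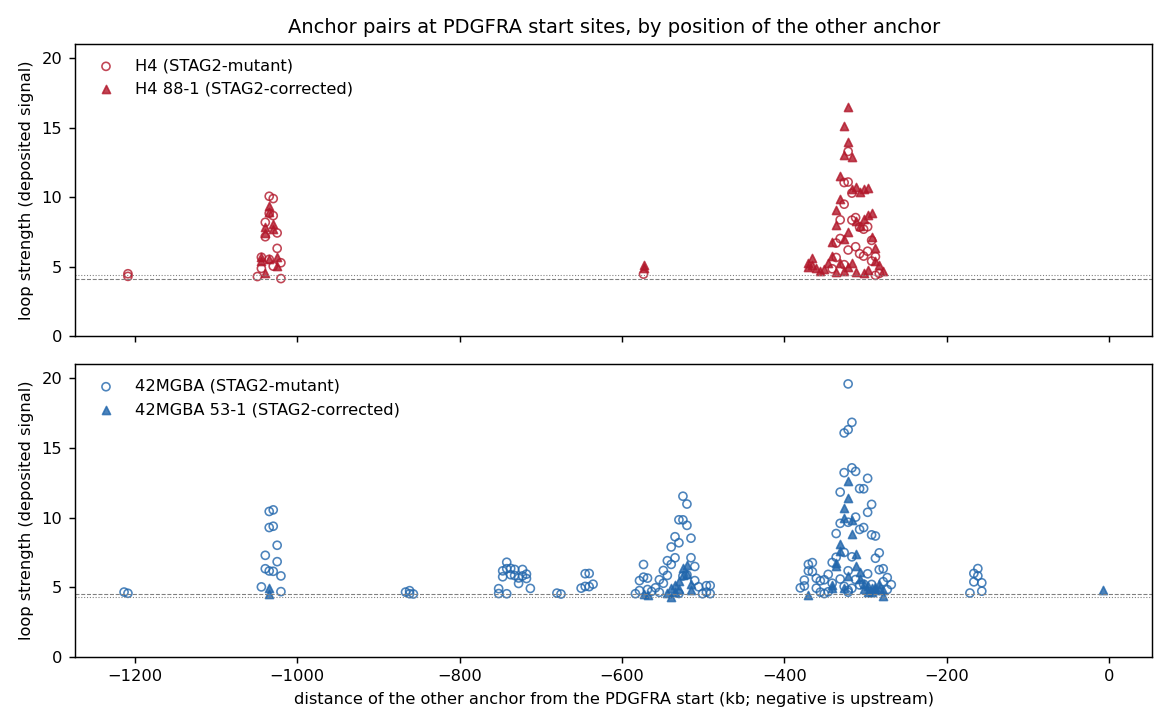
Strength of each listed PDGFRA loop (vertical axis, deposited signal) against the distance of its other anchor from the PDGFRA start in kb (horizontal axis, negative upstream), for the H4 pair above and the 42MGBA pair below, with open circles for STAG2-mutant and filled triangles for STAG2-corrected cells. Grey lines mark the lowest listed strengths, dashed for STAG2-mutant and dotted for STAG2-corrected. The peak 319 kb upstream is taller in H4 88-1 than in H4 and lower in 42MGBA 53-1 than in 42MGBA.

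PDGFRB (chr5:149493402-149535435, minus strand), the receptor for the B and D types of the same growth factors and a marker of pericytes, had merged loops that were all stronger in the corrected line, in both pairs. It had 18 listed loops in H4 and 46 in H4 88-1, and 24 in 42MGBA against 34 in 42MGBA 53-1. The highest strength was 5.75 in H4 and 10.2 in H4 88-1, and 5.89 in 42MGBA against 7.67 in 42MGBA 53-1. Both the number and the highest strength were thus larger in the corrected line of each pair.

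All 19 merged PDGFRB loops of the H4 pair had a positive log2 ratio, from 0.52 to 1.10 with a median of 0.75, and 17 were at least 1.5-fold stronger in H4 88-1. The share of all merged loops at this ratio was not computed here either. In 9 of the 19 the loop was missing from the H4 list. In the 42MGBA pair all 13 merged loops were positive, from 0.20 to 0.44 with a median of 0.38, and none passed the cutoff. Among genes with at least 10 merged loops, 25 of 2117 had a higher median between the H4 lines and 93 of 2064 between the 42MGBA lines. Other merged loops within 1 Mb had medians of 0.077 between the H4 lines and 0.00078 between the 42MGBA lines, over 226 and 299 loops, and chromosome 5 had 0.090 and −0.025. With the 300000 strongest loops merged the gene's medians were 0.44 and 0.13, over 51 and 43 loops that reach down to the lowest listed strengths.

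The PDGFRB loop with the largest mean over the 4 lists joined chr5:149505179-149509847, inside the gene, with chr5:149596718-149601546, 91.6 kb upstream at a start of CAMK2A, the gene of a calcium- and calmodulin-dependent kinase subunit. This loop measured 5.71 in H4 and 9.58 in H4 88-1, and 5.54 in 42MGBA against 7.27 in 42MGBA 53-1. It was 1.68-fold higher after STAG2 correction between the H4 lines and 1.31-fold between the 42MGBA lines, with z-scores of 2.09 and 1.33. The loop with the largest z-score joined chr5:149509848-149514578, also inside the gene, with chr5:149592181-149596717 within the transporter gene SLC6A7. This loop measured 4.66 in H4 and 10.0 in H4 88-1, and 5.57 in 42MGBA against 6.90 in 42MGBA 53-1, a 2.15-fold and a 1.24-fold difference with z-scores of 2.98 and 1.08. On both loops the corrected lines were the higher of their pairs.

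All merged PDGFRB loops ran to a single region, chr5:149577394-149616135, which holds CAMK2A and SLC6A7. In each pair, 2 merged loops, from chr5:149495560-149500512, also lie within 3 kb of a start of CSF1R. They count again among the other receptor tyrosine kinase genes below, where CSF1R had no call. The 7 gained loops all started from anchors at intragenic transcript starts and none from an anchor within 3 kb of the canonical start, at which 2 loops were merged. Those 2 loops measured 6.76 and 7.06 in H4 88-1 and were missing from the H4 list. Weaker PDGFRB loops to other regions went the other way in part. The region of HMGXB3 and TIGD6, chr5:149378776-149398252, had 7 loops of up to 5.18 in 42MGBA and none in the other lists. The region that overlaps RPS14, chr5:149803772-149822909, had 5 of up to 5.30 in H4 and none in H4 88-1, and none in 42MGBA against 4 of up to 4.63 in 42MGBA 53-1. At the canonical start, 42MGBA had 2 listed loops and 42MGBA 53-1 none. There, no PDGFRB loop was gained between the H4 lines and none was merged between the 42MGBA lines.

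**Figure D4:**
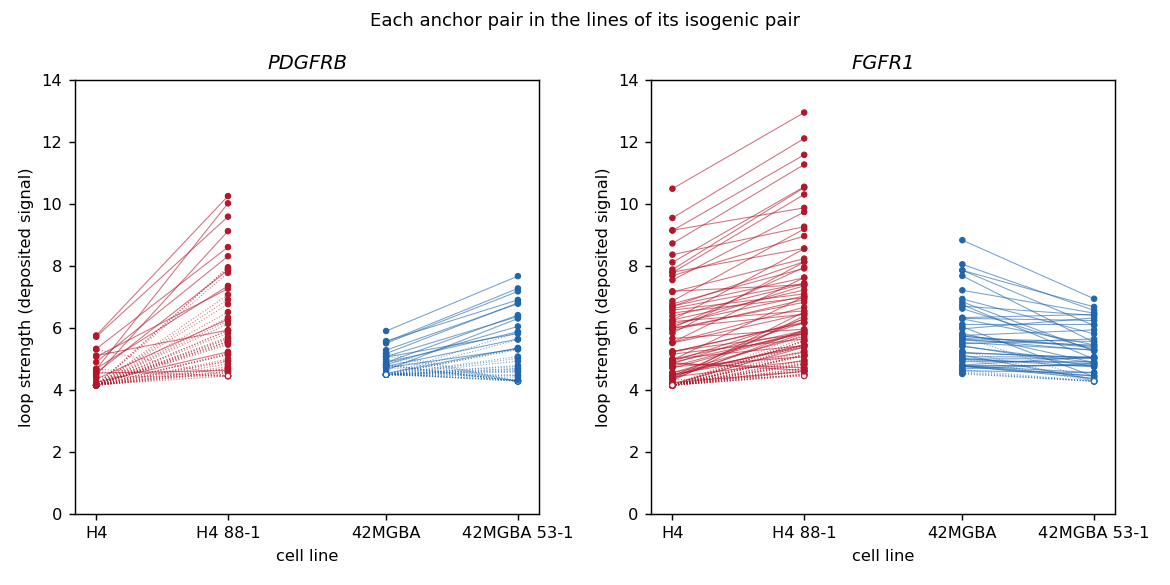
Strength of each listed loop of PDGFRB and FGFR1 (vertical axis, deposited signal) in the 4 cell lines, with lines joining the values of a loop within its pair. Open points with dotted lines are loops missing from a list and drawn at its lowest strength, and the highest PDGFRB loop is stronger in both corrected lines whereas the highest FGFR1 loop is stronger in H4 88-1 than in H4 and weaker in 42MGBA 53-1 than in 42MGBA.

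MET (chr7:116312250-116438431, plus strand), the receptor for hepatocyte growth factor, had 24 listed loops in H4 and 27 in H4 88-1, and 24 in 42MGBA against 25 in 42MGBA 53-1. The number was thus nearly the same in the 4 lines. The strongest loop, which also had the largest z-score, joined the promoter anchor chr7:116308706-116313677, which contains the MET sequence printed above, with chr7:116444700-116449598 at the start of CAPZA2, 136.0 kb downstream. CAPZA2 encodes a subunit of the actin capping protein. The strength of this loop was 9.43 in H4 and 10.00 in H4 88-1, and 8.06 in 42MGBA against 10.6 in 42MGBA 53-1. It was 1.06-fold higher in the corrected line of the H4 pair and 1.32-fold in the 42MGBA pair, with z-scores of 0.072 and 2.02, and is the gained loop of the 42MGBA pair. The call was lost when the log2 ratio was scored and when a 1.5-fold ratio was asked for.

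The median log2 ratio over merged MET loops was 0.20 in the H4 pair, with 11 of 14 positive, and 0.14 in the 42MGBA pair, with 13 of 17 positive. Both medians were below 1.2-fold, the size at which a gene's median is called here. Other merged loops within 1 Mb had medians of −0.20 and −0.11, and chromosome 7 had −0.11 and −0.053. Loops to TES, a gene of a focal adhesion protein, were listed in both H4 lines and in neither 42MGBA line. From the intragenic MET start they were listed in H4 alone, of up to 6.14. From the anchors at the canonical start they were of up to 4.40 in H4 and 5.99 in H4 88-1. The strongest listed loop with MET as a whole between its anchors ran over 213 kb and had strengths of 19.1 in H4 and 15.8 in H4 88-1, and 13.2 in 42MGBA against 11.1 in 42MGBA 53-1, with z-scores of −2.37 and −0.61. It was thus weaker in the corrected line of each pair while the CAPZA2 loop inside it was not.

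FGFR1 (chr8:38257733-38326352, minus strand), a receptor for fibroblast growth factors, had 65 listed loops in H4 and 95 in H4 88-1, and 52 in 42MGBA against 45 in 42MGBA 53-1. All 96 loops in the union ended in a single region, chr8:38541965-38600473 at TACC1, a gene of a centrosome-associated coiled-coil protein. Its strongest loop joined chr8:38265054-38269990 with chr8:38570683-38575692 over 306 kb. The strength was 10.5 in H4 and 12.9 in H4 88-1, and 8.83 in 42MGBA against 6.93 in 42MGBA 53-1. The loop was highest in H4 88-1 and lowest in 42MGBA 53-1, with z-scores of 1.18 and −0.74. The loop with the largest z-score, from chr8:38269991-38274955 to chr8:38575693-38580602, had 7.88, 10.5, 6.62 and 5.28 in the same order and z-scores of 1.33 and −0.53.

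All 40 merged FGFR1 loops of the H4 pair had a positive log2 ratio, from 0.042 to 0.59 with a median of 0.27, and none was called. In the 42MGBA pair 4 of 17 were positive, with a range from −0.47 to 0.083 and a median of −0.23, below 1.2-fold. The medians of other merged loops within 1 Mb were close to these, at 0.28 and −0.22. All merged loops started at intragenic starts, in the part of the gene farther from its canonical start. At the anchors within 3 kb of that start the 11 listed loops were of up to 5.15 in H4 and 5.91 in H4 88-1, and 5.73 in 42MGBA against 5.64 in 42MGBA 53-1. A loop with the whole gene between its anchors, over 540 kb, measured 8.14 in H4, 8.57 in H4 88-1 and 8.43 in 42MGBA and was missing from 42MGBA 53-1, with z-scores of 0.012 and −2.19.

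IGF1R (chr15:99191768-99507759, plus strand), the receptor for insulin-like growth factors, had 42 listed loops in H4 and 42 in H4 88-1, and 30 in 42MGBA against 40 in 42MGBA 53-1. The IGF1R loop with the largest mean over the 4 lists ran from the promoter anchor chr15:99191459-99196388 to chr15:99395161-99400064 in the gene body, 204 kb downstream. This loop measured 7.84 in H4 and 6.63 in H4 88-1, and 8.90 in 42MGBA against 6.87 in 42MGBA 53-1, lower in each corrected line, with z-scores of −0.96 and −0.82. The loop with the largest z-score ran 127 kb upstream from chr15:99186715-99191458 to chr15:99059673-99064497, the anchor with the motif printed above. It was the highest IGF1R loop of H4 88-1 and measured 6.81 in H4 and 9.80 in H4 88-1, and 4.88 in 42MGBA against 5.57 in 42MGBA 53-1, with a z-score of 1.55 between the H4 lines, and lay outside the merged set of the 42MGBA pair. These 2 loops thus differed in direction within the H4 pair.

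By region, the 8 merged loops upstream of IGF1R, in chr15:99049899-99094081, had a median log2 ratio of 0.41 in the H4 pair, and the 6 in the gene body had −0.11. Those upstream ran from 0.13 to 0.53. Those in the gene body were of both signs, from −0.41 to 0.34. The upstream region had 18 listed loops in H4 and 17 in H4 88-1, but 2 in 42MGBA and 7 in 42MGBA 53-1. A region on the far side of the gene near SYNM, which encodes an intermediate filament protein, had 5 in H4 and 12 in H4 88-1, and 16 in 42MGBA against 18 in 42MGBA 53-1. Over all merged IGF1R loops the median was 0.28 in the H4 pair, with 11 of 14 positive, and −0.15 in the 42MGBA pair, with 1 of 12 positive. Other loops within 1 Mb had 0.17 and −0.12.

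EGFR (chr7:55086710-55279321, plus strand), the receptor for epidermal growth factor, had no listed loop in H4 or H4 88-1, 46 in 42MGBA and 44 in 42MGBA 53-1. The strength ran up to 6.10 in 42MGBA, with a median of 5.07, and up to 5.46 in 42MGBA 53-1, with a median of 4.98. The levels of both 42MGBA lines were close to the lowest listed strengths, so a small difference decides whether a loop is listed. The same pattern, loops in both 42MGBA lines and in neither H4 line, was found in 599 of the 20136 genes (2.97%).

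Of the 57 EGFR loops, 45 ran upstream to chr7:54833697-54867732 and 7 downstream to chr7:55311689-55326002, where the EGFR sequence with the motif lies. The strongest ran from the intragenic anchor chr7:55259271-55264221 over 406 kb to the upstream region, with 6.10 in 42MGBA and 5.02 in 42MGBA 53-1. Of the 57, 17 started at anchors within 3 kb of the canonical start, where the highest strength was 5.40 in 42MGBA and 5.09 in 42MGBA 53-1. The corners of these regions were themselves joined in all 4 lines by a loop with the whole gene between its anchors, chr7:54838337-54843252 with chr7:55321194-55326002. It spanned 483 kb and measured 27.4 in H4 and 25.3 in H4 88-1, and 25.4 in 42MGBA against 24.8 in 42MGBA 53-1. It ranked 28, 32, 62 and 30 in these lists of 300000. This large loop around EGFR was therefore alike in strength in the 4 lines, with z-scores of −1.78 and 1.17, whereas loops at EGFR start sites were listed in the 42MGBA lines only.

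KIT (chr4:55523434-55606949, plus strand), the receptor for stem cell factor, lies downstream of PDGFRA and had 25 listed loops in 42MGBA, 2 in H4 88-1 and none in H4 or 42MGBA 53-1. The strongest joined chr4:55525989-55530993 with chr4:55825258-55830260, 299 kb downstream, with 6.01 in 42MGBA and 4.59 in H4 88-1. The next anchor downstream holds the KIT sequence printed above and reached 5.68 in 42MGBA. A loop with the whole gene between its anchors, over 643 kb, had strengths of 8.75 in H4 and 10.8 in H4 88-1, and 9.61 in 42MGBA against 5.24 in 42MGBA 53-1, with z-scores of 0.99 and −2.25. Within the 42MGBA pair the listed KIT loops and the loop around the gene were thus lower in the corrected line, as the PDGFRA loops were. Both genes lie on the stretch of chromosome 4 whose medians by distance, PDGFRA loops included, are given above.

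AXL (chr19:41725128-41767671, plus strand), the receptor for GAS6, had 10 listed loops in H4 88-1, 1 in 42MGBA 53-1 and none in either STAG2-mutant line. The strongest joined chr19:41719386-41724384 with chr19:41767890-41772840 at the start of HNRNPUL1, which encodes a ribonucleoprotein, over 48.5 kb. It had a strength of 5.86 in H4 88-1 and was missing from the other lists, so that H4 88-1 was at least 1.41-fold higher than H4. The loop listed in 42MGBA 53-1 had a strength of 4.31, close to the lowest listed value. The list of 42MGBA ends at 4.49, so a loop of that strength could not be listed there. The pattern of a listed loop in both corrected lines and in neither mutant line was found in 116 of the 20136 genes (0.576%). A loop with AXL as a whole between its anchors, over 58.5 kb, had 4.34 in H4, 8.91 in H4 88-1 and 5.18 in 42MGBA 53-1 and was missing from 42MGBA, with a z-score of 2.53 between the H4 lines.

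NTRK2 (chr9:87283290-87710666, plus strand), the receptor for brain-derived neurotrophic factor, had 2 listed loops in H4, 13 in H4 88-1 and none in the 42MGBA lines. The strongest joined chr9:87565924-87570917, the intragenic anchor with the NTRK2 sequence printed above, with chr9:87308177-87313109 in the same gene, over 258 kb. It had 5.67 in H4 88-1 and was missing from the other lists. The loops of H4, of up to 4.25, started at the canonical start and all 13 of H4 88-1 at intragenic starts. Loops as weak as those of H4 could not be listed in H4 88-1, whose list ends at 4.44. FGFR2 (chr10:123237846-123357972, minus strand), a further receptor for fibroblast growth factors, had 8 listed loops in H4 and 6 in H4 88-1, and 7 in 42MGBA against 1 in 42MGBA 53-1, all to a single region 637 to 656 kb away. Its strongest joined chr10:123359067-123363772 with chr10:122708057-122713068 and had 4.67 in H4 and 5.83 in H4 88-1, and 5.02 in 42MGBA against 4.66 in 42MGBA 53-1. All loops of NTRK2 and FGFR2 were below the strength needed to enter the merged sets.

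The 2 systems, H4 with its derivative and 42MGBA with its derivative, were compared by a strength ratio of at least 1.5 among the merged loops of 2 lines with the same STAG2 genotype. Each line enters a comparison between systems and a comparison within its pair, so the ratios of both kinds share values. Between the STAG2-mutant lines, 49 of 124 merged loops (39.5%) were stronger in 42MGBA, where 26.1% of all 149005 merged loops were, and none was stronger in H4, beside 11.2% of all. Of the 49, 41 were at PDGFRA, 6 at MET and 2 at IGF1R. With each list scaled by its median over pairs listed in all 4 lines, 18 were stronger in 42MGBA and 4 in H4. The share of all merged loops with scaled lists was not computed, so these counts have no background beside them. The median log2 ratio of 42MGBA to H4 was 0.64 at PDGFRA, 0.15 at MET, 0.19 at IGF1R and −0.25 at FGFR1, and no PDGFRB loop was merged. Over all merged loops of the chromosomes it was −0.29 on chromosome 4, −0.42 on chromosome 7, 0.39 on chromosome 15 and 0.28 on chromosome 8. The medians of PDGFRA, MET and FGFR1 thus had the opposite sign to those of their chromosomes, and loops within 1 Mb had medians of 0.71 at PDGFRA, −0.45 at MET and −0.15 at FGFR1.

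Between the STAG2-corrected lines, none of 131 merged loops was stronger in 42MGBA 53-1, beside 10.4% of all 151046, and 46 (35.1%) were stronger in H4 88-1, beside 24.5% of all. Of the 46, 21 were at FGFR1, 13 at PDGFRA, 7 at IGF1R and 5 at PDGFRB. The median log2 ratio of 42MGBA 53-1 to H4 88-1 was −0.64 at FGFR1, −0.50 at PDGFRA, −0.38 at PDGFRB, 0.095 at MET and 0.025 at IGF1R. At PDGFRA the median of the whole chromosome was −0.49 in this comparison, and less the chromosome's median the gene's was −0.011. PDGFRA loops were therefore higher in 42MGBA than in H4 among the mutant lines and lower in 42MGBA 53-1 than in H4 88-1 among the corrected lines.

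Other genes of these pathways were taken from 4 lists. Of 24 ligand genes, 10 had merged loops between the H4 lines and 12 between the 42MGBA lines. In the H4 pair 17 of 355 ligand loops (4.79%) were gained and 5 (1.41%) lost, beside 1.94% and 2.17% of all merged loops. The gained loops were 15 at IGF2, a growth factor that IGF1R binds, with a median log2 ratio of 0.66, and 2 at NTF3, a neurotrophin. The lost ones were 3 at NRG1, a ligand of the ERBB receptors, 1 at HGF, the ligand of MET, and 1 at BDNF, the ligand of NTRK2. In the H4 pair HGF and BDNF stand outside the rule for named genes and were added after their values were seen. In the 42MGBA pair 10 of 214 ligand loops (4.67%) were lost, beside 2.45% of all merged loops, and none was gained, beside 1.61%. Of the 10, 7 were at EREG, a ligand of EGFR, and 3 at BDNF.

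Of 26 other receptor tyrosine kinase genes, 8 had merged loops in each pair. The only call was 1 gained loop of 92 (1.09%) in the H4 pair, at DDR1, a collagen receptor, beside 1.94% of all merged loops. Of 19 genes that relay the signal, PIK3R1, a regulatory subunit of phosphoinositide 3-kinase, had 5 lost loops and PLCG1, a phospholipase, 3 gained loops in the H4 pair, out of 93 in the list. The lost share was 5.38% beside 2.17% of all merged loops, and the gained share 3.23% beside 1.94%. SOS1, an activator of RAS, had the 1 gained loop of 61 (1.64%) in the 42MGBA pair, beside 1.61% of all merged loops. None of the 89 merged loops of 18 inhibitor genes between the H4 lines and none of 242 between the 42MGBA lines was called. BDNF was the only gene of these lists with calls in both pairs. It had 1 lost loop of 79 merged between the H4 lines and 3 of 17 between the 42MGBA lines. Its median log2 ratios were −0.33 and −0.71 in the same order, beside 0.14 and −0.43 over chromosome 11.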

How the data were processed

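Hi-C libraries were made by the authors with the Arima Hi-C+ kit from 2 replicates of each of 4 cell lines. Trimmed reads were mapped by the authors to hg19 (bowtie), filtered for unique and non-duplicate pairs, summed over pairs of 5 kb anchors, corrected with HiCorr and enhanced with DeepLoop. They deposited 1 signal per anchor pair, its loop strength, for the 300000 strongest pairs of a line with replicates pooled. The labels list 12 RNA-seq samples, which were not analysed here.

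Transcript starts were taken from GENCODE release 44 lifted to hg19, and sequences from the same build. Loops were merged over the 100000 strongest pairs of both lines, and z-scores were computed as described above. A gene's median was called past 1.2-fold and ranked among genes with at least 10 merged loops. Every member gene was named, with its strongest loop and the merged loop of largest absolute z-score. Genes of the other lists were named only where a loop was called, at most 3 per list and pair, save CSF1R and, in the H4 pair, HGF and BDNF. Partner genes were named from starts within 3 kb or overlap with the region. The genes and lists were chosen with earlier results of these data known. Alternatives changed the regression, scale, cutoff, number of loops merged, missing loops, scaling and distance to a start, and neighbours were joined. The code was tested on simulated data. Python 3.11.15, numpy 2.4.6 and pandas 2.3.3 were used.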

Additional observations from a re-analysis of the deposited data

Results flagged for a closer look

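Merged PDGFRA loops had a median log2 ratio (corrected over mutant line) of 0.36 between the H4 lines and −0.64 between the 42MGBA lines. Among the 5 genes with merged loops, PDGFRA was the only gene whose median passed 1.2-fold in opposite directions in the systems. FGFR1, at 0.27 and −0.23, and IGF1R, at 0.28 and −0.15, also had medians of opposite sign. Between the 42MGBA lines these were below 1.2-fold. Not all partner regions of PDGFRA went in opposite directions, since the 8 merged loops to the region within SCFD2 had medians of −0.14 and −0.97. The difference between the systems was not tested, since each line has a single pooled list. Other merged loops within 1 Mb had medians of 0.49 and −0.64.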

How the results depend on the processing

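No paired analysis was possible because the replicates of each line are pooled into 1 list, and no replicate was left out for the same reason. A list of strengths holds neither the depth nor the error of a loop, and nothing below its lowest strength. None of the alternatives turned the sign of a gene's median that passed 1.2-fold. The causes of the changes below were not tested, except that wider or narrower rules count more or fewer loops by construction. For alternatives that change the call or the merged set, the share over all merged loops was not computed.

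Anchors that overlap a start site gave 134 listed loops in H4, 180 in H4 88-1 and 149 in 42MGBA 53-1. Anchors within 10 kb gave 355 in H4 and 485 in H4 88-1, and 610 in 42MGBA against 387 in 42MGBA 53-1. The outermost 5′ start alone gave 120, 144, 230 and 127 in the same order of lines.

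The 8 gained loops of the H4 pair became 21 with a 1.5-fold ratio, 13 with 200000 loops merged, 27 with 300000 merged, 5 with only loops listed in both lines, 21 within 10 kb, 1 with the outermost start and 2 with neighbours joined. A single loop was lost there, with 300000 merged. The 1 gained loop of the 42MGBA pair became 2 with an intercept, 0 with z-scores of log2 ratios, 0 with the log2 ratio less the chromosome's median, 0 with a 1.5-fold ratio, 2 with 200000 merged, 7 with 300000 merged, 2 with only loops listed in both lines and 3 within 10 kb. Its 21 lost loops became 38 with a 1.5-fold ratio, 39 with 300000 merged, 39 within 10 kb and 3 with neighbours joined.

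Between the STAG2-mutant lines, the 49 loops stronger in 42MGBA became 7 with a 2-fold ratio, 18 with scaled lists, 19 with only loops listed in both lines and 97 within 10 kb, and the 0 stronger in H4 became 4 with scaled lists and 5 within 10 kb. Between the STAG2-corrected lines, the 46 stronger in H4 88-1 became 4 with a 2-fold ratio, 29 with anchors that overlap a start and 22 with the outermost start, and the 0 stronger in 42MGBA 53-1 became 2 with scaled lists.

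Of the gene medians, that of PDGFRB was 0.44 between the H4 lines and 0.13 between the 42MGBA lines with 300000 merged, and 0.51 in the 42MGBA pair with scaled lists. In the 42MGBA pair, FGFR1 had −0.033 less the chromosome's median and −0.041 with anchors that overlap a start, and IGF1R had −0.019 with 300000 merged. Between the STAG2-mutant lines, FGFR1 had −0.38 with scaled lists, −0.53 less the chromosome's median and −0.12 with 300000 merged. Between the STAG2-corrected lines, PDGFRA had −0.011 and MET 0.51 less the chromosome's median, PDGFRB −0.69 with the outermost start, FGFR1 −0.35 with 300000 merged and IGF1R −0.58 within 10 kb.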
